A study of Mus musculus with 2 samples.

Results

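Blood vessel endothelial cells of the mouse aorta were selected on measured values from 2 single-cell RNA libraries, and 175 of 7358 cells met the rule. A cell was a member when its deposited values of Pecam1 and Cdh5 summed to at least 3, those of the lymphatic genes Mmrn1, Prox1 and Flt4 to under 3, that of the smooth muscle gene Myh11 lay under 20, and those of the macrophage genes C1qa, C1qb and C1qc summed to under 5. Pecam1 encodes the adhesion protein CD31 and Cdh5 encodes VE-cadherin, the junction protein of endothelial cells. The GLPG0187 library gave 100 members of 4397 cells and the vehicle library 75 members of 2961 cells.

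All animals carried the Fbn1C1041G/+ genotype, a mouse model of Marfan syndrome with a mutant allele of fibrillin-1, and animals without the mutation were not analysed here. The treated animals received GLPG0187, an inhibitor of integrin alpha-v per the submitters, and the others received vehicle, both daily between weeks 6 and 16 of age. The tissue was aortic root and ascending aorta at 16 weeks of age, and male and female animals of each treatment were pooled into 1 library. Cells were released with enzymes, sorted to remove debris and profiled with the 10x Genomics 3′ version 3 chemistry, which reads the 3′ ends of transcripts in droplets. The vehicle library carries the word control in its treatment label and Vehicle in its title. The labels do not say how many animals were in a pool. Every value below is a deposited whole number on a depth-corrected scale, not a UMI count. With 1 library per group there is no test between the groups, cells are not replicates, and treatment cannot be told apart from differences between the pooled animals or between the library preparations. Intervals of shares are exact 95% Clopper-Pearson intervals and cover counting error only.

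Endothelial cells line the inner face of blood vessels, where they sense flow through factors such as Klf2 and Klf4, hold a barrier through Cdh5 and admit leukocytes through Vcam1, Icam1 and Selp. In the aorta they cover the lumen and also form the small vessels of the outer wall, whose capillary cells take up fatty acids through Gpihbp1, Lpl and Cd36. Under interferon-gamma, endothelial cells can produce MHC class II molecules, which present peptides to T cells. This programme runs through the transcription factor Irf1, the transactivator Ciita and a promoter element that includes the Y box. Interferon-stimulated response elements (ISRE) lie at many promoters of the guanylate-binding proteins and the immunity-related GTPases.

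The promoters of 4 of the 12 highest named genes are shown. They were chosen because each holds one of these motifs, and they are not the 4 largest ratios. They are RefSeq sequences of GRCm38.p6, 250 bases before to 50 after the annotated start, written 5′ to 3′ along the gene. H2-Aa, the alpha chain of the class II molecule I-A, has its window at chr17:34287774-34288073 on the minus strand, and H2-Eb1, the beta chain of I-E, at chr17:34305617-34305916 on the plus strand. The window of Gbp2, a guanylate-binding protein, lies at chr3:142620413-142620712 on the plus strand, and that of Igtp, an immunity-related GTPase, at chr11:58199306-58199605 on the plus strand. Capitals mark the Y box CTGATTGG in the class II genes and the ISRE core in the others, which is GAAA, any 2 bases and GAAA again, and is read on the opposite strand in Gbp2.
H2-Aa: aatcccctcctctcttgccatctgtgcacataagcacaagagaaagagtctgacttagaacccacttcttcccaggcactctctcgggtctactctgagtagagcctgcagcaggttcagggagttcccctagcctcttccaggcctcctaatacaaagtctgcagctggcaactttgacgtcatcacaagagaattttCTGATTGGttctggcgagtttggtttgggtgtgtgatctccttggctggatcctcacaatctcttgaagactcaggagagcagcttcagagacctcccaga
H2-Eb1: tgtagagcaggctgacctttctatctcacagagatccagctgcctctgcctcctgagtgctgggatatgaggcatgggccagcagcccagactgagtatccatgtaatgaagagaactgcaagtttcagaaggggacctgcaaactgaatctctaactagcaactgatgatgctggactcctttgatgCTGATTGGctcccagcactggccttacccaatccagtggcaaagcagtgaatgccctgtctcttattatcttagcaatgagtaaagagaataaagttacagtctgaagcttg
Gbp2: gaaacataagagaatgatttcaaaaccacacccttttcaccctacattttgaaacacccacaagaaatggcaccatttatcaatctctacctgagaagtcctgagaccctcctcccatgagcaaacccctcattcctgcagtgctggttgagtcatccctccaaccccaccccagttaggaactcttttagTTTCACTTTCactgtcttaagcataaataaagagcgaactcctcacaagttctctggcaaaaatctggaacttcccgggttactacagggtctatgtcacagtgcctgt
Igtp: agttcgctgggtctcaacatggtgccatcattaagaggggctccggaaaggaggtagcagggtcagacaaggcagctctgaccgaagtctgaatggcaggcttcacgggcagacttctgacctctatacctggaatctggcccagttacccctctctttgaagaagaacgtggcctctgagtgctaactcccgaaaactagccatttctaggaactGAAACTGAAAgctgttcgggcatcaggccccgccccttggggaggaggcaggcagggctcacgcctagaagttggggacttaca
Relative to the gene start, the motif began at position -51 in H2-Aa, -62 in H2-Eb1, -59 in Gbp2 and -34 in Igtp. Over all 32851 RefSeq promoter windows, 4.10% held CTGATTGG and 3.44% held the ISRE core, on either strand. Among 7 listed class II genes, 4 had a window and 2 of these held the Y box. Among 15 listed interferon-induced genes, 12 had a window and 8 of these held the ISRE core. These matches describe letters in a window and are not binding sites.

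The label was checked against endothelial markers that the rule did not use, and it held for 108 of the 175 members. Clustering, which set these cells apart, did not leave those markers out, so the check is not independent of it. These 108 cells (60 from GLPG0187 and 48 from vehicle) fell into 4 sub-clusters and had 8 or more of 18 other endothelial markers above 0, with a median of 14. Their mean values were 6.20 for Vwf, the clotting factor of endothelial granules, 6.50 for the surface sialomucin gene Emcn and 1.95 for the arterial transcription factor gene Sox17. Pecam1 and Cdh5, which chose the members, averaged 23.4 and 8.42 there and carry no weight in this check. Beside those genes, the genes furthest above the cells outside the endothelium were Adgrl4, Cyyr1, Sox17, Tie1, Emcn, Myct1, Egfl7, Rasip1, Cldn5, Vwf, Sox18, Podxl and Nos3, given as a description. Egfl7, a secreted endothelial factor, averaged 11.1 in GLPG0187 cells and 11.4 in vehicle cells.

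The other 67 members fell into 3 sub-clusters led by stromal genes, and the data go against the label for most of them. These were 40 of the 100 GLPG0187 members (40%, interval 30.3 to 50.3) and 27 of the 75 vehicle members (36%, interval 25.2 to 47.9). Their median was 2 of the 18 other markers, although 6 of them had 8 or more, 5 had 5 to 7 and the highest had 15, so that 114 of all members had 8 or more. Cdh5 was at 0 in 59 of them. Mean Dcn, the proteoglycan decorin of fibroblasts, was 222 in these cells and 14.0 in the 108. The first of these sub-clusters was led by Etv1, Myoc, Gpm6b, Ptn and Tbx20, the second by Clec3b, Smoc2, Gfpt2, Tnxb and Scn7a, and the third by Lamc3, Timp1, Ahsg, Tagln and Nov. They receive no cell type name here. Among members with a Pecam1 plus Cdh5 sum of exactly 3, just inside the rule, 1 of 31 had 8 or more other markers. Just outside it, 0 of 62 cells with a sum of 2 did, while 106 of 113 members with a sum of 10 or more did. For this reason the comparisons below lead with the 108 cells, a set chosen after values were seen, and all 175 members stand beside them.

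**Figure D1:**
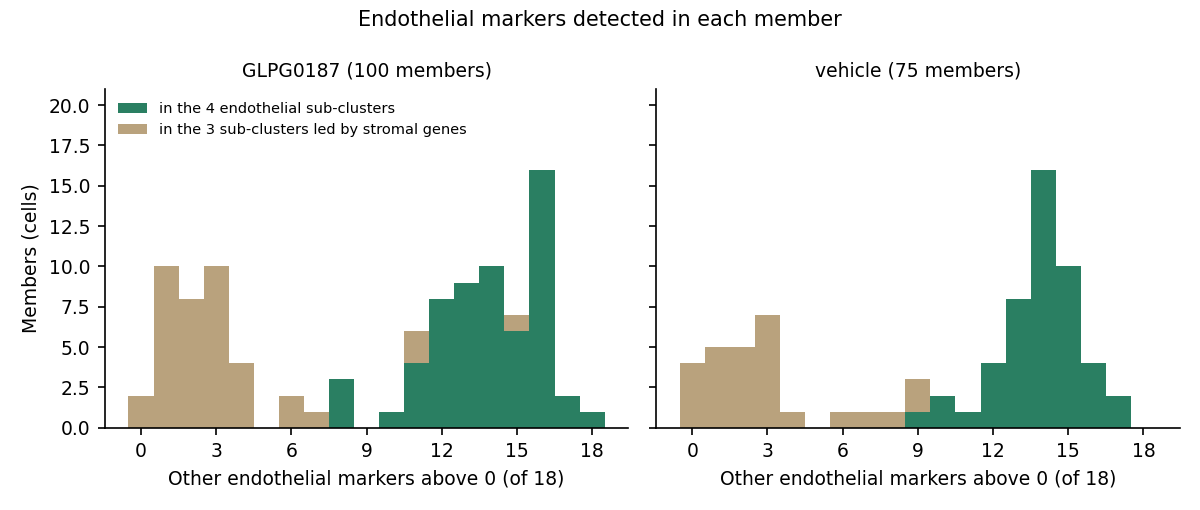
Number of the 18 other endothelial markers above 0 (x axis) against the number of members (y axis), for the GLPG0187 library on the left and the vehicle library on the right. The 108 cells of the 4 endothelial sub-clusters have at least 8 markers, while most of the 67 cells of the 3 sub-clusters led by stromal genes have 4 or fewer.

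Members made up 2.27% of the GLPG0187 library (interval 1.85 to 2.76) and 2.53% of the vehicle library (interval 2.00 to 3.16), and the intervals overlapped. The 108 cells made up 1.36% of the GLPG0187 library (interval 1.04 to 1.75) and 1.62% of the vehicle library (interval 1.198 to 2.14). A share of cells also depends on how the tissue was digested and on the rule. No barcode was shared by members of both libraries, although 5 were shared over all cells. Scrublet called 1 GLPG0187 member and 0 vehicle members doublets, and 0 of the 108 cells. It was run on the deposited depth-corrected values and not on UMI counts, and how many doublets it missed was not tested. The 108 cells had a median of 3153.5 detected genes in GLPG0187 and 2902.5 in vehicle. Cells with Xist and no Y-linked gene made up 38.3% of the GLPG0187 cells and 29.2% of the vehicle cells, and cells with Y-linked genes and no Xist made up 36.7% of the GLPG0187 and 50% of the vehicle cells. These groups are called female-marked and male-marked cells below.

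The 4 endothelial sub-clusters differed in their leading genes but shared some of them, given as a description because clustering used these genes. The Bmx sub-cluster held 49 cells and was led by Klk8, Pkhd1l1, Amigo2, Gkn3 and Mal, with means of 5.41 for the arterial kinase gene Bmx and 80.4 for Cytl1. These are not particular to it: in the Sema3g sub-cluster Bmx averaged 3.87, Gkn3 3.07 and Cytl1 35.3. Bmx was above 0 in 93.3% of Sema3g cells and 77.6% of Bmx cells. In the stromal-gene sub-cluster led by Lamc3, Cytl1 averaged 102. The Tcf15 sub-cluster held 32 cells and was led by Tcf15, Rgcc, Gpihbp1, Timp4 and Cd36, with means of 3.94 for the transcription factor gene Tcf15, 19.4 for Gpihbp1 and 7.03 for Kdr, the main VEGF receptor. Its cells also had a mean of 13.4 for Rgs5, a pericyte marker. The Sema3g sub-cluster of 15 cells was led by Sema3g, Stmn2, Atp2a3, Pthlh and Slc6a6, and Gja5, the gap junction protein connexin 40 of arteries, averaged 4.6. Emcn was nearly missing from it at 0.267. The Ackr1 sub-cluster of 12 cells was led by Lrg1, Grrp1, Dnm3, Insr and Selp. Its means were 5.67 for the venule chemokine receptor gene Ackr1, 8.50 for Selp (P-selectin) and 3.58 for the venous factor gene Nr2f2.

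The Bmx sub-cluster took the larger part of the endothelium in the GLPG0187 library. It held 33 of 60 cells (55.0%, interval 41.6 to 67.9) in GLPG0187 and 16 of 48 (33.3%, interval 20.4 to 48.4) in vehicle. The Tcf15 sub-cluster held 15 of 60 cells (25%, interval 14.7 to 37.9) in GLPG0187 and 17 of 48 (35.4%, interval 22.2 to 50.5) in vehicle. The Sema3g sub-cluster held 6 GLPG0187 and 9 vehicle cells, and the Ackr1 sub-cluster 6 of each. All 4 pairs of intervals overlapped. Clustering again without the genes that differed between libraries placed the same 108 cells in the same sub-clusters. That run kept 1324 of the 1500 variable genes, so most of its input was the same and a like result was likely. In the Bmx sub-cluster the median of genes detected was 3239 in GLPG0187 and 2822.5 in vehicle, and mean Dcn was 30.3 in GLPG0187 and 16.4 in vehicle. The part of depth and of stromal RNA in these shares was not tested.

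**Figure D2:**
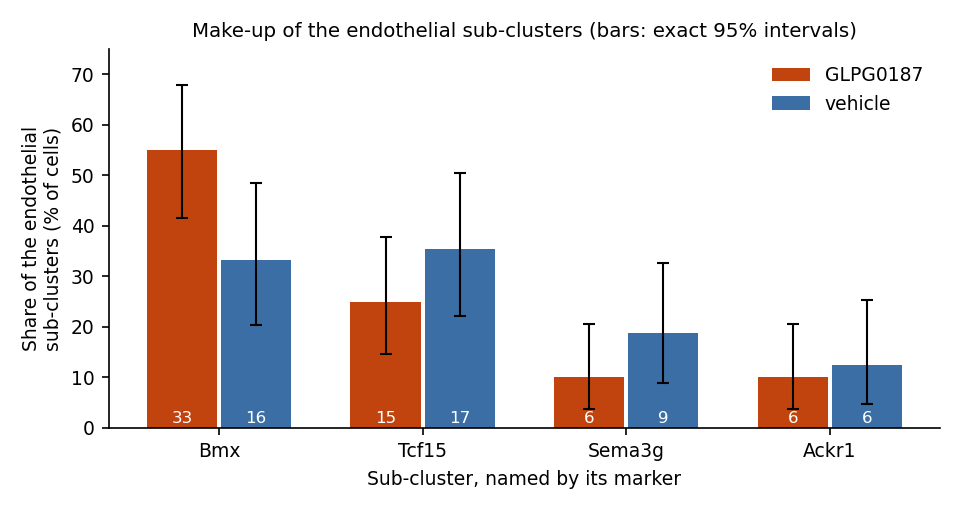
Share of the 108 endothelial cells in each sub-cluster (y axis, % of cells) for GLPG0187 (left bar, 60 cells) and vehicle (right bar, 48 cells), with exact 95% intervals and the number of cells in each bar. The Bmx sub-cluster holds 55.0% of GLPG0187 and 33.3% of vehicle cells, with overlapping intervals.

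Among the list medians compared between the treatments, that of MHC class II genes lay furthest from 0, with higher values in endothelial cells from GLPG0187 animals. The invariant chain gene Cd74, which guides class II molecules to the peptide-loading compartment, averaged 24.1 in the 60 GLPG0187 cells and 2.44 in the 48 vehicle cells, a log2 ratio of 3.26. It was above 0 in 83.3% of GLPG0187 cells (interval 71.5 to 91.7) and 33.3% of vehicle cells (interval 20.4 to 48.4). The median cell had 13 in GLPG0187 and 0 in vehicle, and the highest had 158 in GLPG0187 and 35 in vehicle. The ranges overlapped, since both libraries held cells at 0.

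H2-Aa (chr17:34282744-34287823 in GRCm38 with GENCODE vM21, protein-coding, minus strand) averaged 8.50 in GLPG0187 cells and 0.646 in vehicle cells, a log2 ratio of 3.64. Its partner in I-A, H2-Ab1, averaged 7.85 in GLPG0187 and 0.917 in vehicle cells (log2 ratio 3.03), and H2-Eb1 averaged 6.62 in GLPG0187 and 0.688 in vehicle (log2 ratio 3.19). Those 4 genes were the measured members of the class II list of 7, where measured means a summed value of at least 100, and their median log2 ratio was 3.22. The median over all 2361 measured genes was -0.04. Of these genes, 168 (7.12%) were at least 1.5-fold higher in GLPG0187, among them all 4 class II genes, and 135 (5.72%) were at least 1.5-fold lower. The 3 members below the filter were H2-DMa, with means of 1.48 in GLPG0187 and 0.188 in vehicle, H2-DMb1 with 0.783 in GLPG0187 and 0.229 in vehicle, and Ciita, the class II transactivator. Ciita was above 0 in 10 of 60 GLPG0187 cells and 0 of 48 vehicle cells. A limit of 3 counts of 48, counting error only, allows a vehicle share of cells with a value above 0 of up to 6.25%.

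Single cells carried the class II genes together. All 4 of Cd74, H2-Aa, H2-Ab1 and H2-Eb1 were above 0 in 35 of 60 GLPG0187 cells (58.3%, interval 44.9 to 70.9) and in 4 of 48 vehicle cells (8.33%, interval 2.32 to 20). They were all at 0 in 4 GLPG0187 and 21 vehicle cells. In the Bmx sub-cluster all 4 were above 0 in 26 of 33 GLPG0187 cells and 2 of 16 vehicle cells. The Tcf15 sub-cluster had 2 of 15 such cells in GLPG0187 and 0 of 17 in vehicle. The Sema3g sub-cluster had 3 of 6 in GLPG0187 and 0 of 9 in vehicle, and the Ackr1 sub-cluster 4 of 6 in GLPG0187 and 2 of 6 in vehicle. Female-marked cells gave 12 of 23 in GLPG0187 and 1 of 14 in vehicle, and male-marked cells gave 15 of 22 in GLPG0187 and 3 of 24 in vehicle. The share was higher in GLPG0187 in each of the 4 sub-clusters and in both female-marked and male-marked cells.

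Class II genes were also higher in GLPG0187 outside these cells. Among smooth muscle cells with Myh11 of at least 20, Cd74 was above 0 in 26.7% of 1501 GLPG0187 cells and 11.2% of 607 vehicle cells, with means of 1.89 in GLPG0187 and 0.524 in vehicle. Median genes detected there were 4077 in GLPG0187 and 4203 in vehicle. Macrophages, taken as cells with a C1q sum of at least 5, had Cd74 means of 290 in GLPG0187 and 172 in vehicle. The endothelial means of 24.1 in GLPG0187 and 2.44 in vehicle lay above the smooth muscle means of the same libraries, and the part of free RNA in the droplets was not tested. The macrophage marker genes summed to a mean of 0.667 per cell in GLPG0187 endothelial cells and 0.542 in vehicle endothelial cells. C1qa, C1qb and C1qc are among these 11 genes and the member rule held their sum under 5, so a low sum was partly set by the rule. In each library 3 of the 11 genes were at 0, and T and B cell markers were at 0 in all 108 cells. Across all 13099 genes measured outside the endothelium, 3.36% were at least 1.5-fold higher in GLPG0187 and 2.18% lower. All 7 class II genes were among the higher ones, with a median log2 ratio of 0.92. That comparison pools all other cell types, whose make-up differed between the libraries. In it the red cell markers had a median of 6.17 and the mesothelial markers -1.42. The part of make-up in the class II value was not tested.

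MHC class I genes were higher as well, by smaller factors. B2m, the light chain of class I molecules, was above 0 in every one of the 108 cells and averaged 68.3 in GLPG0187 and 33.0 in vehicle (log2 ratio 1.01). H2-K1 averaged 38.9 in GLPG0187 and 19.1 in vehicle, and H2-D1 averaged 52.2 in GLPG0187 and 28.9 in vehicle, both classical heavy chains. The non-classical H2-Q7 averaged 9.20 in GLPG0187 and 3.23 in vehicle. Psmb8, a subunit of the immunoproteasome that cuts peptides for class I, averaged 6.58 in GLPG0187 and 2.65 in vehicle. Of 11 listed genes 10 were measured, 9 of them at least 1.5-fold higher and 0 lower, with a median log2 ratio of 1.06. The medians were 1.07 in the Bmx and 0.94 in the Tcf15 sub-cluster, 1.30 in female-marked and 0.89 in male-marked cells.

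Interferon-induced genes followed the same direction, with unequal levels between sub-clusters. Gbp2 averaged 8.93 in GLPG0187 and 0.854 in vehicle cells (log2 ratio 3.32), and Igtp averaged 3.03 in GLPG0187 and 0.250 in vehicle (log2 ratio 3.45). Gbp3, Gbp4, Gbp5 and Irgm2 had log2 ratios of 2.81, 2.57, 2.74 and 2.35. The annotated spans of Igtp and Irgm2 overlap on chromosome 11 and the guanylate-binding proteins are close paralogs, so reads may have been split between them. Irf1, a transcription factor induced by interferon-gamma that is on none of the lists and was chosen after its values were seen, averaged 2.08 in GLPG0187 and 0.625 in vehicle.

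The antiviral gene Rsad2 averaged 3.48 in GLPG0187 and 0.271 in vehicle cells, and its level lay mainly in the Tcf15 sub-cluster. Rsad2 averaged 12.9 in GLPG0187 and 0.647 in vehicle Tcf15 cells, and 0.0303 in GLPG0187 and 0 in vehicle Bmx cells. Its log2 ratio was 2.90 in female-marked cells and 0.08 in male-marked cells. Isg15, a ubiquitin-like protein, averaged 15.3 in GLPG0187 and 2.35 in vehicle Tcf15 cells, and 1.64 in GLPG0187 and 0.438 in vehicle Bmx cells. Of 15 listed interferon-induced genes 10 were measured, 8 of them higher and 0 lower, with a median log2 ratio of 1.26. In female-marked cells 5 of 5 measured genes were higher, with a median of 2.20, while in male-marked cells 0 of 2 measured genes were. The difference between sub-clusters was not tested.

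Some interferon-gamma responsive genes were seen in few cells. Cxcl9, a T cell chemokine induced by interferon-gamma, averaged 21.5 in GLPG0187 with 13 of 60 cells above 0, and 0.688 in vehicle with 6 of 48. The 2 highest cells held 71.7% of its GLPG0187 sum and 72.7% of its vehicle sum. Cxcl10 was above 0 in 6 GLPG0187 and 0 vehicle cells, and the ubiquitin-like gene Ubd in 8 GLPG0187 and 0 vehicle cells. The 2 highest cells held 76.7% of the Cxcl10 sum and 82.4% of the Ubd sum in GLPG0187. The checkpoint ligand gene Cd274 (PD-L1) was above 0 in 36.7% of GLPG0187 and 8.33% of vehicle cells. The costimulatory genes Cd80 and Cd86 were at 0 in all 108 cells. These genes were chosen after their values were seen.

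**Figure D3:**
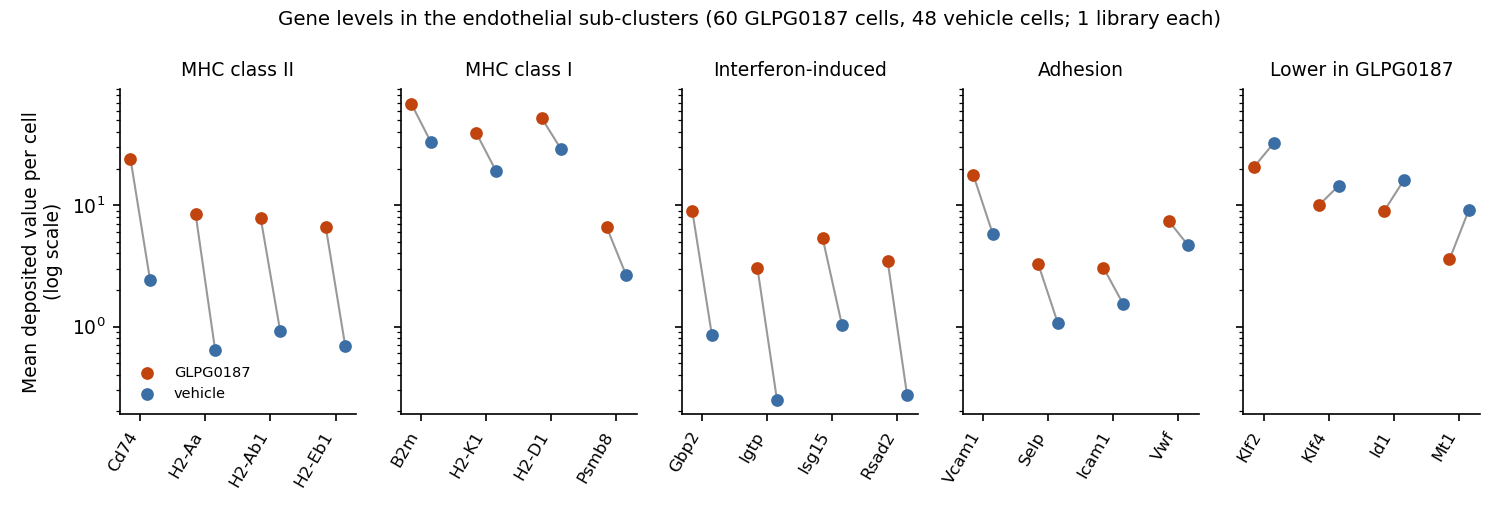
Mean deposited value per cell (y axis, log scale) of 20 genes in the 108 endothelial cells, with GLPG0187 (60 cells) left of vehicle (48 cells) for each gene and a line joining the pair. Values of the 16 genes in the MHC, interferon-induced and adhesion panels are higher in GLPG0187, and those of Klf2, Klf4, Id1 and Mt1 are lower. The genes were picked for showing, those of the last panel as lower ones, so the shared directions do not describe whole lists. Each point is 1 library and carries no error.

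Leukocyte adhesion genes were higher in GLPG0187 over the 108 cells. Vcam1, the ligand of lymphocyte integrin alpha-4, averaged 17.8 in GLPG0187 and 5.79 in vehicle cells (log2 ratio 1.58). Over all 175 members the log2 ratio of Vcam1 was 0.53, under 1.5-fold. Vcam1 averaged 28.0 in GLPG0187 and 11.1 in vehicle Bmx cells, but 1.13 in GLPG0187 and 1.24 in vehicle Tcf15 cells. Selp averaged 3.25 in GLPG0187 and 1.06 in vehicle, and Icam1 3.05 in GLPG0187 and 1.54 in vehicle. Procr, the protein C receptor, averaged 3.55 in GLPG0187 and 1.56 in vehicle, and Vwf 7.43 in GLPG0187 and 4.67 in vehicle. Over both libraries Procr averaged 5.27 in Bmx cells and 0.125 in Tcf15 cells. The part of the sub-cluster shares in the means over the 108 cells was not tested. Of 16 listed adhesion and activation genes 9 were measured, 6 of them higher and 0 lower, with a median log2 ratio of 0.93. The median was 0.03 in female-marked cells and 1.27 in male-marked cells. Within the Bmx sub-cluster alone the median was 0.87, with 4 of 6 measured genes higher and 0 lower.

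Genes of TGF-beta and BMP signalling differed in both directions. The ligands Bmp4 and Bmp6 averaged 3.87 and 2.73 in GLPG0187 cells, against 2.00 and 1.19 in vehicle cells. Over both libraries Bmp4 averaged 6.18 in the Bmx sub-cluster, which held a larger share of the GLPG0187 cells, and 0.3125 in the Tcf15 sub-cluster. The part of the sub-cluster shares in these means was not tested. The co-receptor gene Eng averaged 9.18 in GLPG0187 and 5.81 in vehicle, and the inhibitor gene Smad6 averaged 1.17 in GLPG0187 and 0.667 in vehicle. The BMP target Id1 averaged 9.02 in GLPG0187 and 16.1 in vehicle (log2 ratio -0.87). Of 23 listed genes 15 were measured, 4 of them higher and 2 lower, with a median log2 ratio of 0.09. Genes of endothelial-to-mesenchymal transition had a median of -0.25 over 9 of 15 members, 1 of them higher and 0 lower.

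Of the genes of the drug's target, Itgav had too low a sum to be measured. Itgav, which encodes integrin alpha-v (chr2:83724397-83806916, GRCm38), averaged 0.717 in GLPG0187 and 0.396 in vehicle cells. It was above 0 in 38.3% of GLPG0187 cells (interval 26.1 to 51.8) and 22.9% of vehicle cells (interval 12 to 37.3). The intervals overlapped. Its partners Itgb3 and Itgb5 averaged 0.183 and 0.583 in GLPG0187 and 0.104 and 0.708 in vehicle. The common beta subunit gene Itgb1 averaged 14.2 in GLPG0187 and 13.5 in vehicle. Over 17 listed integrin genes 5 were measured, 1 of them higher and 0 lower. That gene was Itga9, which averaged 1.62 in GLPG0187 and 0.917 in vehicle. Over both libraries Itga9 averaged 2.33 in the Bmx and 0.094 in the Tcf15 sub-cluster. The part of the sub-cluster shares in its ratio was not tested. Focal adhesion genes had a median of -0.05 over 13 of 19 members, with 1 higher and 0 lower.

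Some genes of stress and glucocorticoid action and the flow-responsive gene Klf2 were lower in GLPG0187. Klf2 averaged 20.7 in GLPG0187 and 32.4 in vehicle cells (log2 ratio -0.69), and Klf4 averaged 10.1 in GLPG0187 and 14.5 in vehicle (log2 ratio -0.57, under 1.5-fold). For Klf2 the ratio was -0.05 in female-marked cells and -1.11 in male-marked cells. Only 2 of 12 measured shear stress genes were at least 1.5-fold lower, and the list median was -0.0023. Hspb1, a small heat shock protein, averaged 25.2 in GLPG0187 and 42.4 in vehicle, and the inducible chaperone gene Hspa1b averaged 3.05 in GLPG0187 and 6.38 in vehicle (log2 ratio -1.1). The heat shock list had 5 of 12 measured genes lower and 0 higher, with a median of -0.43. In female-marked cells 2 of 11 were lower, with a median of -0.047, and in male-marked cells 7 of 11, with a median of -0.63. Within the Bmx sub-cluster the heat shock median was -0.095. The metallothionein gene Mt1 averaged 3.57 in GLPG0187 and 9.19 in vehicle (log2 ratio -1.40). Tsc22d3, a glucocorticoid-induced leucine zipper gene, averaged 1.90 in GLPG0187 and 3.88 in vehicle. In the clock and glucocorticoid list 5 of 8 measured genes were lower and 0 higher (median -0.66). Its median was -0.17 in female-marked and -1.0 in male-marked cells.

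Immediate early genes, which respond within minutes to handling and digestion, are given by sub-cluster. In the Bmx sub-cluster 5 of 8 measured genes were lower and 0 higher, with a median log2 ratio of -0.91. In the Tcf15 sub-cluster 2 of 14 were higher and 0 lower, with a median of 0.34. The difference between the sub-clusters was not tested, and the medians rest on different members. Dusp1, a phosphatase of MAP kinases, averaged 1.97 in GLPG0187 and 16.9 in vehicle cells of the Bmx sub-cluster, and 12.1 in GLPG0187 and 12.5 in vehicle Tcf15 cells. The other lowest genes over the 108 cells were 8430408G22Rik, Tcim, Cyr61, Scarb1, Rflnb, Socs3, Serpinf1, Pdzd2 and Fosl2, with log2 ratios between -2.06 and -1.03. Over all 175 members the log2 ratio of Serpinf1 was 0.31, and within the Bmx sub-cluster those of Socs3 and Pdzd2 were 0.72 and 0.50. Cyr61, a matrix protein of the CCN family, averaged 2.03 in GLPG0187 and 7.17 in vehicle cells.

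Within the Bmx sub-cluster 8.41% of 1142 measured genes were at least 1.5-fold higher in GLPG0187 and 6.65% lower, and the class II list had 4 of 4 measured genes higher (median 3.11). Within the Tcf15 sub-cluster 7.63% of 708 genes were higher and 7.77% lower, and 7 of 7 measured class I genes were higher. Over all 175 members 225 of 3694 genes (6.09%) were higher and 139 (3.76%) lower. There the class II list had 5 of 5 measured genes higher (median 2.46), the class I list 10 of 11 (median 1.1), and the interferon list 10 of 12 (median 0.75). C3 and Ifi47 were among the 12 highest genes only in that wider set. The complement gene C3 averaged 4.45 in GLPG0187 and 0.667 in vehicle members, but 0.217 in GLPG0187 and 0.0417 in vehicle cells of the 108.

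**Figure D4:**
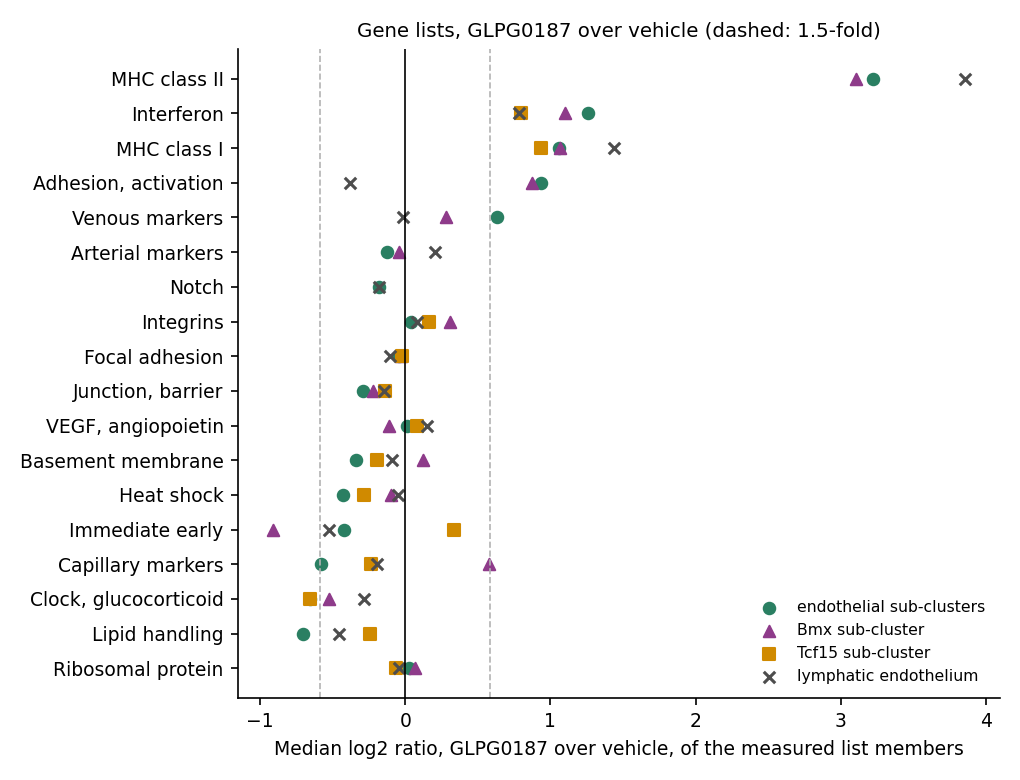
Median log2 ratio of GLPG0187 over vehicle (x axis) of the measured members of each gene list (y axis), for the 108 endothelial cells, the Bmx and Tcf15 sub-clusters and lymphatic endothelial cells; dashed lines mark 1.5-fold, and a symbol is missing where fewer than 3 members were measured. MHC class II lies furthest right at 3.22 for the 108 cells, and lipid handling furthest left at -0.71.

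The capillary part, members with a Gpihbp1 plus Cd36 sum of at least 3, made up a smaller share in GLPG0187, with overlapping intervals. It held 23 of the 60 GLPG0187 cells (38.3%, interval 26.1 to 51.8) and 24 of the 48 vehicle cells (50%, interval 35.2 to 64.8). Over all members it held 24 of 100 in GLPG0187 (24.0%, interval 16.0 to 33.6) and 24 of 75 in vehicle (32.0%, interval 21.7 to 43.8). It took in 31 of the 32 Tcf15 cells, all 12 Ackr1 cells, 2 of 49 Bmx cells and 2 of 15 Sema3g cells. The name follows the rule only, since the Ackr1 cells carry the venule and venous genes given above. Of the listed capillary genes, Lpl, Car4 and Btnl9 averaged 0 in the Ackr1 cells, while Fabp4 averaged 131 and Cd300lg 2.50. Rgcc averaged 0.917 in the Ackr1 cells and 17.8 in the Tcf15 cells. Among the 108 cells 59 had a sum of 0, 2 had 1 or 2, 1 had 3 or 4, and 41 had 10 or more, so few cells lay near the limit. Gpihbp1, which carries lipoprotein lipase across capillary cells, and Cd36, a fatty acid transporter, chose this part and are given only as values: their means over the 108 cells were 4.90 and 7.83 in GLPG0187, against 8.25 and 11.4 in vehicle.

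The capillary part, with its Ackr1 cells, was compared with the other endothelial cells within each library. This is a description since the part was chosen by measured values. Genes were counted only where both libraries passed the limit on the same side, so agreement between the libraries was set by that rule. Of 1050 genes measured, 10.5% were at least 1.5-fold higher in the capillary part in both libraries and 8.95% lower. Fabp4, a fatty acid binding protein, averaged 139 in capillary and 5.95 in other GLPG0187 cells, and 174 in capillary and 7.38 in other vehicle cells. The lipase gene Lpl averaged 6.26 in capillary and 0.486 in other GLPG0187 cells, and 7.5 in capillary and 0.208 in other vehicle cells. Kdr averaged 5.83 in capillary and 0.216 in other GLPG0187 cells, and 5.71 in capillary and 0.5 in other vehicle cells. Rgcc, a cell cycle regulator, averaged 11.7 in capillary and 0.0270 in other cells of GLPG0187. On the lower side, Cytl1 averaged 2.22 in capillary and 70.8 in other GLPG0187 cells, and 4.67 in capillary and 71.0 in other vehicle cells. The elastin gene Eln averaged 1.57 in capillary and 11.4 in other GLPG0187 cells, and 2.33 in capillary and 10.2 in other vehicle cells.

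Further lists separated the capillary part. Apart from Gpihbp1 and Cd36, which chose it, the 3 measured lipid handling genes, Fabp4, Fabp5 and Lpl, were higher in it in both libraries, as were 5 of 7 basement membrane genes and 10 of 14 immediate early genes, while 5 of 8 measured arterial genes were lower and 1 was higher. None of 8 measured class I genes differed by 1.5-fold in both libraries. Against all other members, stromal-gene cells included, 11.2% of 1668 genes were higher and 12.8% lower.

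Some lipid genes were lower in GLPG0187 over the 108 cells, where the capillary share was also smaller. The part of that share in these values was not tested. Fabp4 averaged 57.1 in GLPG0187 and 90.9 in vehicle cells, and the lipoprotein receptor gene Scarb1 averaged 0.817 in GLPG0187 and 2.42 in vehicle. The lipid list had 4 of 7 measured genes lower and 0 higher (median -0.71), and the capillary list 6 of 13 lower and 0 higher (median -0.58), with Gpihbp1 and Cd36 on both lists. Within the Bmx sub-cluster the direction turned, with a lipid median of 0.50 over the same genes and a log2 ratio of 1.16 for Fabp4. Within the Tcf15 sub-cluster the lipid median was -0.25 and the capillary median -0.23, and Fabp4 averaged 151 in GLPG0187 and 204 in vehicle cells. Over the genes measured in female-marked cells both medians were 0.02, while in male-marked cells the lipid median was -1.32 and the capillary median -0.94. Rgs5, the pericyte marker, averaged 4 in GLPG0187 and 21.6 in vehicle cells of the Tcf15 sub-cluster, and the 2 highest cells held 72.2% of its vehicle sum over the 108 cells. The 8 pericyte markers together had a median sum per Tcf15 cell of 4 in each library, with a range of 1 to 25 in GLPG0187 and 0 to 166 in vehicle. The part of pericyte RNA in these results was not tested.

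Lymphatic endothelium was compared next, taken by the same rule but with a Mmrn1, Prox1 and Flt4 sum of at least 3, which gave 95 GLPG0187 and 55 vehicle cells. Of 2337 genes measured, 8.34% were at least 1.5-fold higher in the 108 blood vessel cells in both libraries and 9.80% lower. With all 175 members the shares were 9.35% and 9.85% of 2833 genes. Sox17 averaged 1.67 in GLPG0187 and 2.31 in vehicle blood vessel cells, against 0.0421 in GLPG0187 and 0.127 in vehicle lymphatic cells. Ly6c1, a surface protein of blood endothelium in mice, averaged 22.5 in GLPG0187 and 20.2 in vehicle blood vessel cells, against 0.905 in GLPG0187 and 0.964 in vehicle lymphatic cells. On the lymphatic side, the hyaluronan receptor gene Lyve1 averaged 0.0500 in GLPG0187 and 0.0208 in vehicle blood vessel cells, against 11.9 in GLPG0187 and 8.71 in vehicle lymphatic cells. The chemokine gene Ccl21a was at 0 in all 108 cells and averaged 52.9 in GLPG0187 and 39.0 in vehicle lymphatic cells. The arterial list had 9 of 10 measured genes higher in the 108 cells in both libraries and 1 lower. Gpihbp1 did not separate the classes by detection, since it was above 0 in 31.7% of GLPG0187 and 39.6% of vehicle blood vessel cells and in 29.5% of GLPG0187 and 45.5% of vehicle lymphatic cells. By level it was higher in blood vessel cells, with means over both libraries of 6.39 in the 108 cells and 1.47 in lymphatic cells. Median genes detected in lymphatic cells were 3024 in GLPG0187 and 3000 in vehicle.

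**Figure D5:**
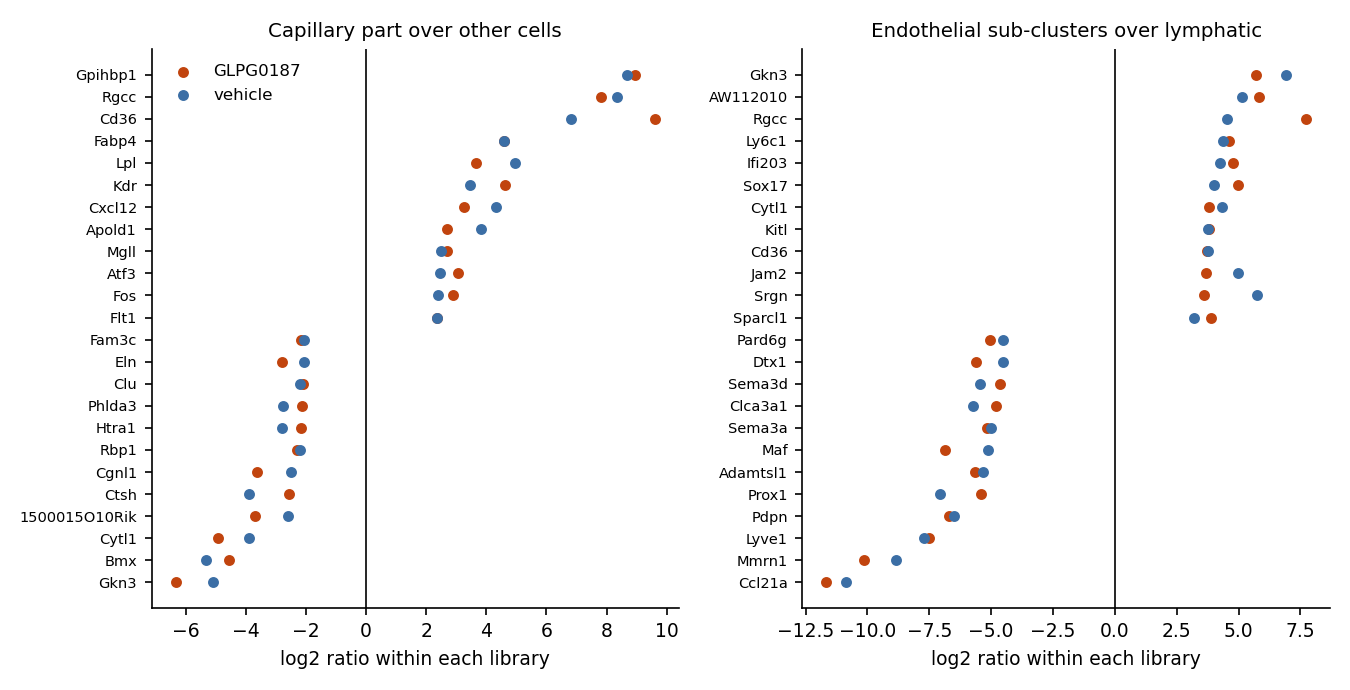
Log2 ratios (x axis) of the 12 highest and 12 lowest genes within each library, for the capillary part over the other endothelial cells on the left and for the 108 endothelial cells over lymphatic cells on the right; each point is 1 library. Both libraries lie on the same side of 0 for every gene shown because this was required for showing them, and the ratios of genes at 0 on one side, such as Ccl21a, depend on the added value of 1.

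Class II genes were higher in GLPG0187 lymphatic cells too, while adhesion genes had a list median below 0 there. In lymphatic endothelium 5.39% of 3267 measured genes were at least 1.5-fold higher in GLPG0187 and 4.65% lower. Cd74 averaged 4.33 in GLPG0187 and 0.127 in vehicle lymphatic cells, and the 4 measured class II genes had a median log2 ratio of 3.86, each of them higher. All 4 were above 0 together in 19 of 95 GLPG0187 cells (20%) and 0 of 55 vehicle cells. The mean level in GLPG0187 lymphatic cells lay below that in GLPG0187 blood vessel cells. All 10 measured class I genes were higher, with a median of 1.44. Adhesion and activation genes had a median of -0.38 over 8 members there, 1 of them higher and 2 lower. Whether the treatment difference itself differs between the 2 vessel classes was not tested.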

How the data were processed

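The authors deposited 1 table per library of whole numbers per gene and cell, over 18920 genes. These deposited values are handled as a score: per the labels they come from droplet sequencing, and the values show that totals per cell had been evened out to between 12078 and 16719 before deposit. The raw depth is unknown and no count model was used. The submitters' processing notes name Cell Ranger, Seurat and mm10, and give neither a version nor the step each served.

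Members and gene lists were chosen with earlier results of these data known. Values were summed per library and class, divided by the class total after adding 1, and compared as log2 ratios; genes with a summed value of at least 100 were measured, and 1.5-fold (0.585 on the log2 scale) is a limit of size, not a test. In an addition to the design, 6 sex-linked genes were left out of gene counts. Named genes were the 12 highest and 12 lowest ratios with a mean of at least 0.5, at least 25% of cells above 0, the same side past 1.5-fold without the 2 highest cells per library, and the same direction in female-marked and male-marked cells. Members were clustered with scanpy 1.11.5 (1500 variable genes, 15 principal components, 12 neighbours, Leiden resolution 0.5 with igraph 0.11.9); 3 resolutions were looked at, and the resolution and the 108 cells were chosen after values were seen. A second clustering kept 1324 genes, without those that differed between libraries and the MHC and interferon lists. Doublets were called with Scrublet on the deposited values and kept. Shares carry exact Clopper-Pearson 95% intervals. Scripts ran in Python 3.11.15 with numpy 2.4.6, scipy 1.17.1, pandas 2.3.3 and matplotlib 3.10.9, and the ratio step was tested on simulated data. Promoters came from RefSeq and gene spans from GENCODE vM21. Alternatives covered the member rule, filter, added value, scaling, sex, doublets, sub-clusters and the highest cells. A result for 1 listed gene is not reported here.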

Additional observations from a re-analysis of the deposited data

Results flagged for a closer look

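The median of adhesion and activation genes had opposite signs in the 2 vessel classes. Over the list members measured in both classes, the median log2 ratio of GLPG0187 over vehicle was 0.71 in the 108 blood vessel cells and -0.34 in lymphatic cells, where 5 of the 8 genes measured there lay within 1.5-fold either way. The lymphatic list also had medians of opposite sign by sub-cluster, with a median of -0.68 in the Bmx sub-cluster and 0.36 in the Tcf15 sub-cluster. That list had 3 members measured over the 108 cells, of which 2 passed the filter within the Bmx and 0 within the Tcf15 sub-cluster, so its sub-cluster medians rest on low sums. Neither difference was tested, and each treatment had 1 library.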

How the results depend on the processing

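No paired analysis was possible because each treatment had 1 library; for the same reason none was left out. Settings that use the 108 cells, 8 or more markers, a sub-cluster, or equal weights for sub-clusters were chosen after seeing the data.

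The share of members was 2.27% in GLPG0187 and 2.53% in vehicle. A Pecam1 plus Cdh5 sum of at least 2 gave 3.07% in GLPG0187 and 3.44% in vehicle, and a sum of at least 5 gave 1.66% in GLPG0187 and 1.99% in vehicle. The 108 cells gave 1.36% in GLPG0187 and 1.62% in vehicle, and 8 or more markers gave 1.43% in GLPG0187 and 1.72% in vehicle. Of female-marked cells, members were 3.13% in GLPG0187 and 1.89% in vehicle, the opposite order. Of male-marked cells, they were 1.55% in GLPG0187 and 2.64% in vehicle. The capillary share was 38.3% in GLPG0187 and 50% in vehicle among the 108 cells, and 38.1% in GLPG0187 and 47.1% in vehicle among cells with 8 or more markers.

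Counts of genes at least 1.5-fold higher in GLPG0187 and genes at least 1.5-fold lower in GLPG0187, over all members, became 2686 higher and 2133 lower with no filter, and 52 higher and 37 lower with a summed value of at least 300. In female-marked cells 117 were higher, and in male-marked cells 140. Over the 108 cells a summed value of at least 300 left 47 higher and 28 lower, female-marked cells 89 higher and 59 lower, male-marked cells 104 higher, and cells without the capillary part 102 higher. Fewer genes were measured in each of these smaller sets. For capillary over other cells the stricter filter left 67 higher and 64 lower, and the 108 cells gave 110 higher and 94 lower. Against lymphatic cells the stricter filter left 97 higher and 97 lower.

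Some named values changed direction, and the cause was not tested. Each had the opposite sign as reported. Over all members in female-marked cells, the log2 ratio was 0.40 for Cebpd, 0.050 for Fosl2, -0.24 for Procr and 0.86 for Rgs5. Without capillary cells it was -0.11 for Isg15, 2.10 for Rgs5 and 1.06 for Socs3. Over female-marked cells of the 108 it was 0.68 for Cebpd, 0.12 for Gpihbp1 and 0.046 for Rgs5, and without capillary cells 0.019 for Sgk1. In the Bmx sub-cluster alone it was 0.50 for the lipid handling median, 1.16 for Fabp4, -0.15 for Fosb, 0.50 for Pdzd2, -0.085 for Rsad2 and 0.72 for Socs3. The sign for Rsad2 there comes from the added value of 1 and the unequal class totals. Its mean in Bmx cells was near the floor and not lower in GLPG0187. In the Tcf15 sub-cluster alone it was -0.84 for Bmp4, -0.43 for Itga9, 0.063 for Serpinf1 and -0.13 for Vcam1. Serpinf1 was 0.31 over all members. Of the values of named genes computed for the 108 cells under alternatives, 460 kept within the limits for no change, 116 moved and 14 changed direction. MHC class II, MHC class I and interferon list medians stayed above 0 under every alternative run for them, taken over the genes measured in the full set of cells. In male-marked cells of the 108 the interferon median was then 0.47, although 2 of its genes were measured there.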
